A study of Mus musculus with 18 samples.

Results

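The genes described here are 10 genes through which macrophages sense, store and export lipid, namely Trem2, Tyrobp, Apoe, Abca1, Abcg1, Lpl, Fabp4, Fabp5, Gpnmb and Spp1. They were taken by name from the GENCODE vM21 annotation of mm10, out of 21938 protein-coding genes, and all 10 were found. Each was given a window from 5 kb upstream of its body to 1 kb past its end. Every peak of H3K27ac, an acetylation found at active promoters and enhancers, and of H3K27me3, a methylation of the same lysine associated with silencing, was counted if it touched that window.

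The cells were bone marrow-derived macrophages (BMDM), grown from mouse marrow in L929 cell supernatant, from 3 genotypes. WT mice are labelled C57BL6. The dystrophin-deficient mdx mice, a model of Duchenne muscular dystrophy, are labelled Dmdmdx-4Cv. The mdxTLR4-/- mice, labelled mTLR4 with strain Bl6/Bl10, lack both dystrophin and Toll-like receptor 4, a receptor for microbial and tissue-damage signals. TLR4 is missing from the whole animal, so an effect within the marrow and one from elsewhere cannot be told apart, and mice lacking TLR4 alone were not analysed here. The study's methods describe male mice on a C57BL/6J background. The H3K27ac lists came from 2 WT, 2 mdx and 1 mdxTLR4-/- ChIP library, and the H3K27me3 lists from 2 ChIP libraries per genotype. The age labels rose by 1 week from each sample to the next through the series, inputs included, so whether they are true ages is not known. They ran from 19 to 20 weeks in WT, 21 to 22 in mdx and 23 in mdxTLR4-/- for H3K27ac, and from 12 to 13, 14 to 15 and 16 to 17 weeks for H3K27me3. Genotype, strain, labelled age and, for H3K27ac, number of libraries therefore cannot be told apart.

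Libraries were merged before peaks were called, so each mark and genotype has 1 peak list and no spread between mice can be given. No difference below has a replicate check or a p-value. Reads are unscaled counts of ChIP reads in peaks, and densities are these counts per kb. Ratios between genotypes are relative to the median gene unless another setting is named. All intervals are exact 95% intervals for counting error only. The H3K27ac lists are sparse, with 15665 peaks and 274020 reads in peaks in WT, 12076 and 191629 in mdx, and 12493 and 168487 in mdxTLR4-/-, and with a minimum of 5 reads per peak. The total depth of the libraries is not known here, so a gene without a peak had no enrichment that passed the peak caller, which does not show that the mark is absent. As a check of the cell type, all 8 macrophage markers, among them Csf1r, Spi1 and Adgre1, had an H3K27ac peak in the window in every genotype and 0 had H3K27me3. H3K27ac lay over the start of 6, 5 and 5 of them in WT, mdx and mdxTLR4-/-, and over the start of 0 of the 5 T cell, 5 B cell, 6 neutrophil, 6 muscle and fibroblast and 5 erythroid markers in any genotype. By window, H3K27ac touched 0, 1 and 1 of the T cell markers (Cd3d), 2, 1 and 1 of the B cell markers (Ms4a1, and Cd79a in WT) and 1, 1 and 2 of the muscle and fibroblast markers, with 41, 7 and 30 reads at the collagen gene Col1a1, and 0 of the neutrophil and erythroid markers. The part of other cells in the results was not tested.

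Macrophages take up lipoproteins, cell debris and dying cells, and must dispose of the cholesterol and fatty acids they carry. TREM2 is a surface receptor for lipids and lipoproteins that signals through the adaptor TYROBP, also called DAP12. Cholesterol oxidation products activate the liver X receptors, which induce Abca1, Abcg1 and Apoe, so that cholesterol is passed to ABCA1 and ABCG1 and carried off on apolipoprotein E. Lipoprotein lipase (Lpl) frees fatty acids from triglyceride, and FABP4 and FABP5 carry them inside the cell. Gpnmb, a lysosome-linked glycoprotein, and Spp1, the secreted phosphoprotein osteopontin, are raised in lipid-laden macrophages of fat, artery, brain and injured muscle.

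The table of RefSeq promoters used here held 5 of the 10 genes, Trem2, Apoe, Abca1, Gpnmb and Spp1, and did not hold Tyrobp, Lpl, Abcg1, Fabp4 and Fabp5. The 250 bases before the RefSeq start (GRCm38.p6) are shown for 3 genes with dense H3K27ac over the start and for Spp1, which had none. They are read along the gene's own strand, at chr4:53159896-53160145 (minus strand) for Abca1, chr17:48346151-48346400 (plus) for Trem2, chr6:49036268-49036517 (plus) for Gpnmb and chr5:104434861-104435110 (plus) for Spp1. Capitals mark the motifs found.
Abca1: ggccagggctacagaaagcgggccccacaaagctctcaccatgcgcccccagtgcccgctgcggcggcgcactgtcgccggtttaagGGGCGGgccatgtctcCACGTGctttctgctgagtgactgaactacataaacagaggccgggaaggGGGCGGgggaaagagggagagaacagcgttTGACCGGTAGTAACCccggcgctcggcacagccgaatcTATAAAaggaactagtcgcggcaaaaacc
Trem2: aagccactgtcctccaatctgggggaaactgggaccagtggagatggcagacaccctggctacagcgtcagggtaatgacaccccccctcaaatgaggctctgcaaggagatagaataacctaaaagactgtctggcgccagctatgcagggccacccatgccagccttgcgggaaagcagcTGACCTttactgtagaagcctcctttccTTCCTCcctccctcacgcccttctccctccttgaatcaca
Gpnmb: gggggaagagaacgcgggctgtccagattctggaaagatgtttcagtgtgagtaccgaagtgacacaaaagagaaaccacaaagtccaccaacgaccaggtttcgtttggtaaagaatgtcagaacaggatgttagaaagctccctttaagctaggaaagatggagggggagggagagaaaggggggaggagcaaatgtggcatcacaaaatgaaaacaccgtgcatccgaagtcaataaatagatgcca
Spp1: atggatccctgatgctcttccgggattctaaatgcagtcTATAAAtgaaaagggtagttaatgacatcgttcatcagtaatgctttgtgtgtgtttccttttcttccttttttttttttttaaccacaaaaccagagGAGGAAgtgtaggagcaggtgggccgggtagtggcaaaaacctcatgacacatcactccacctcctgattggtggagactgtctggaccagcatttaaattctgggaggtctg

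Motifs of 8 kinds were searched on both strands, and the share of 32851 promoters with each is given for comparison. In Abca1 the capitals mark, from left to right, an Sp1 motif (GGGCGG, in 32.7% of promoters), an E-box (CACGTG, searched with the M-box CATGTG, 17.6%), an Sp1 motif again, a form of the DR4 element bound by liver X receptors (GGTTA and GGTCA with 5 bases between them, read here on the opposite strand, 0.0457%, or 15 promoters) and a TATA box (TATAAA, 12.4%). The DR4 form was chosen because it is the known element of the Abca1 promoter, so its presence there is no finding. Trem2 held the nuclear receptor hexamer AGGTCA on the opposite strand (14% of promoters), with its first base 68 bases before the start, and the core of PU.1, the master factor of myeloid cells (GAGGAA, 23.3%), on the opposite strand 40 bases before the start. The Apoe promoter, not shown, held a PU.1 core 250 bases before its start, and Spp1 held a TATA box and a PU.1 core 211 and 113 bases before it. None of the motifs was found in Gpnmb, and neither the AP-1 motif (TGACTCA or TGAGTCA, 4.46%) nor the C/EBP motif (TTGCNNAA, 9.56%) was found in any of the 5. The Abca1 window was GC-rich, with 61.6% G and C and 20 CG dinucleotides, against medians of 52.4% and 6 over all promoters. Spp1 had 43.6% and 3, Gpnmb 47.2% and 7, Trem2 56% and 4, and Apoe 57.2% and 8. These matches describe letters only.

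H3K27me3 was not found at these genes. In each genotype, 0 of the 10 windows held an H3K27me3 peak, while 38.4% of all protein-coding genes had such a peak in WT, 41.3% in mdx and 39% in mdxTLR4-/-, and 55.5% of genes had none in any genotype. H3K27ac marked 7 of the 10 in WT, 8 in mdx and 7 in mdxTLR4-/-, whereas 39.9%, 34.5% and 36.5% of protein-coding genes had a peak in the window. A peak lay over the gene start itself in 6, 7 and 6 of the 10, against 24%, 20.6% and 20.9% of protein-coding genes. The windows are mostly shorter than usual, with a median of 12.8 kb (9.08 to 135.1 kb) against 23.4 kb over all genes. A shorter window is less likely to touch a peak of either mark, and the shares of all genes were not matched for length. The 10 genes were chosen by name as known macrophage genes, so these counts describe the genes and were not tested.

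Trem2, Tyrobp, Apoe, Abca1, Abcg1, Fabp5 and Gpnmb had H3K27ac in all 3 genotypes. Lpl had a peak in mdx alone, a pattern of 2.97% of genes. Spp1 and Fabp4 had neither mark in any genotype, and no H3K27ac peak in any genotype was found at 51.9% of genes. The 10 windows together held 424 H3K27ac reads in 12 peaks in WT, 260 in 12 in mdx and 254 in 16 in mdxTLR4-/-.

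**Figure D1:**
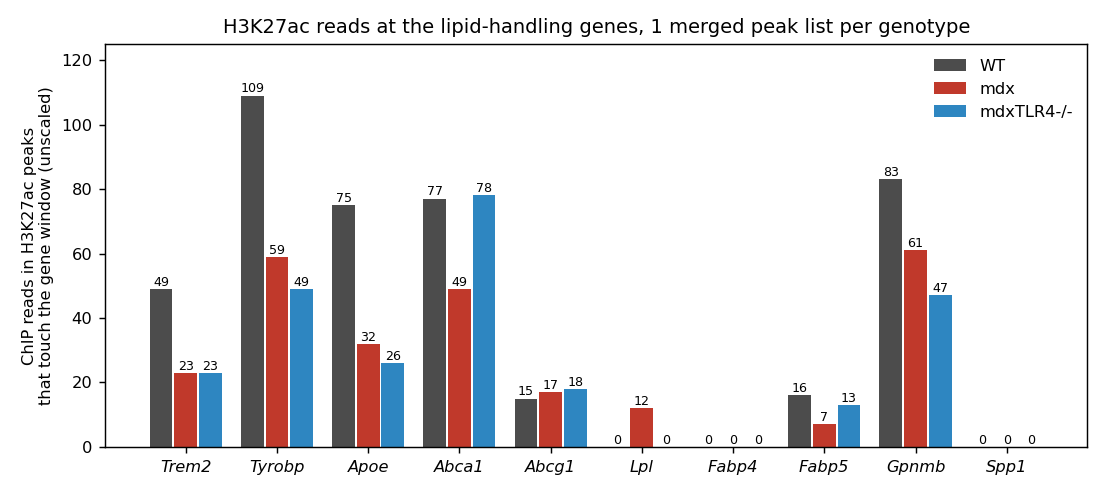
Bars give the unscaled number of ChIP reads (y axis, reads) in the H3K27ac peaks that touch each gene's window, from the 1 merged peak list of each genotype (grey WT, red mdx, blue mdxTLR4-/-), with no error bars because there are no replicate lists. Trem2, Tyrobp, Apoe, Fabp5 and Gpnmb had most reads in WT, whose list also held the most reads in peaks. Abca1 was as high in mdxTLR4-/- (78) as in WT (77), and Spp1 and Fabp4 were at 0.

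Of the receptor pair, Trem2 (chr17:48346401-48354147, plus strand) had 1 H3K27ac peak in each genotype, over exon 1 and the start of intron 1. It held 49 reads over 2600 bp in WT (chr17:48345401-48348000), 23 over 2000 bp in mdx (chr17:48346001-48348000) and 23 over 3600 bp in mdxTLR4-/- (chr17:48344801-48348400). The read density was thus 18.8 reads per kb (13.9 to 24.9) in WT, 11.5 (7.29 to 17.3) in mdx and 6.39 (4.05 to 9.59) in mdxTLR4-/-. The peak had equal reads in mdx and mdxTLR4-/- but was spread over a longer stretch in the latter. Among all peaks over protein-coding starts in the same list, the density stood at percentile 93.5 in WT, 76.9 in mdx and 39.6 in mdxTLR4-/-. In WT only, a further peak of 9 reads began 654 bp past the end of the window.

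Tyrobp (chr7:30413760-30417585, plus strand) had the densest start peak of the 10 in WT, where Trem2 was next at an overlapping interval. The peak over its start held 40 reads in WT (chr7:30412201-30414200), 18 in mdx (chr7:30412201-30414400) and 12 in mdxTLR4-/- (chr7:30412001-30414200). These are unscaled densities of 20 reads per kb (14.3 to 27.2), 8.18 (4.85 to 12.9) and 5.45 (2.82 to 9.53), with the WT interval above the others. A peak at the far end of the window, with 69, 41 and 37 reads, also covered the start of Hcst, which encodes the related adaptor DAP10, and of Nfkbid, a nuclear regulator of NF-kB. Its reads cannot be assigned to any of the 3 genes. In mdxTLR4-/- it began past the end of the Tyrobp body, at chr7:30418201-30423800.

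Of 6 other genes of the TREM family and DAP10 found in the annotation, 3, 1 and 2 had H3K27ac in the window in WT, mdx and mdxTLR4-/-. The shares of all genes given above were 39.9%, 34.5% and 36.5%. In each genotype 1 of the 6 had H3K27me3, beside 38.4%, 41.3% and 39% of all genes. Only Hcst had H3K27ac over the start, through the peak it shares with the Tyrobp window. Treml2 had 7 reads in WT, no peak in mdx and 9 reads in mdxTLR4-/-. Treml1, which encodes a receptor of platelets, had 9 H3K27ac reads in WT alone and had 37.5%, 4.34% and 16.4% of its window under H3K27me3 in WT, mdx and mdxTLR4-/-. In WT and mdxTLR4-/- the peak nearest to Trem2, with 69 and 53 reads, lay over that gene.

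Apoe (chr7:19696109-19699188, minus strand), the gene of apolipoprotein E, lay wholly under H3K27ac in WT and mdx. A single peak held 75 reads over 8600 bp in WT (chr7:19693601-19702200) and 32 reads over 6000 bp in mdx (chr7:19695001-19701000). In mdxTLR4-/- it was in 2 pieces, 18 reads from the upstream side into exon 4 (chr7:19696801-19699400) and 8 reads beyond the gene's end (chr7:19694201-19695800). Density over the start was moderate and its intervals overlapped, at 8.72 reads per kb (6.86 to 10.9) in WT, 5.33 (3.65 to 7.53) in mdx and 6.92 (4.1 to 10.9) in mdxTLR4-/-. The fall in reads went with a shorter peak, since the length under the peak over the start was 2600 bp in mdxTLR4-/-. The apolipoprotein genes downstream of Apoe and the mitochondrial import gene Tomm40 upstream of it held 0 H3K27me3 peaks. The reads in the window of Apoc1, 75, 38 and 26 in WT, mdx and mdxTLR4-/-, were those of the Apoe peaks, except for a further peak of 6 reads in mdx. Tomm40 had 87, 32 and 7 reads in its window, of which 75 in WT and all 32 in mdx were in the Apoe peak. Apoc2, which activates lipoprotein lipase, had no H3K27ac in WT, 15 reads in mdx and 8 in mdxTLR4-/-.

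Abca1 (chr4:53030787-53159895, minus strand), which exports cholesterol to lipid-poor apolipoprotein, had most reads over its start in mdxTLR4-/-. The peak over its start held 35 reads in WT (chr4:53158201-53160400), 23 in mdx (chr4:53158401-53160800) and 40 in mdxTLR4-/- (chr4:53158201-53160000). Per kb, these are 15.9 reads (11.1 to 22.1), 9.58 (6.08 to 14.4) and 22.2 (15.9 to 30.3). The mdxTLR4-/- density was the highest of the 10 genes in that list, at percentile 98.4 among start peaks, against 88.2 in WT and 65.4 in mdx. The sequence printed above lies under this peak in WT and mdx and in part in mdxTLR4-/-. Further peaks of 5 to 18 reads lay in introns 1 and 5 in every genotype, and 1 of 8 reads in intron 34 in WT. Intron 5 held 2 peaks of 14 and 11 reads in WT, 1 of 18 in mdx and 3 of 9, 7 and 8 in mdxTLR4-/-, so that the window totals were 77, 49 and 78 reads in 5, 3 and 6 peaks.

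Abcg1 (chr17:31057675-31117988, plus strand), which exports cholesterol to mature high-density lipoprotein, had far fewer reads. WT had 15 reads in a peak in intron 1 from 526 bp past the start (chr17:31058201-31060200). In mdx a peak of 11 reads reached over the start (chr17:31057401-31060600), and in mdxTLR4-/- a peak of 9 reads began 126 bp past it (chr17:31057801-31059400). The count of peaks over the start thus differs between genotypes only through peak edges at this gene. A peak in intron 2 was called in mdx (6 reads) and mdxTLR4-/- (9 reads) and not in WT, and the window totals were 15, 17 and 18 reads, with 1 inside the interval of each ratio between them.

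**Figure D2:**
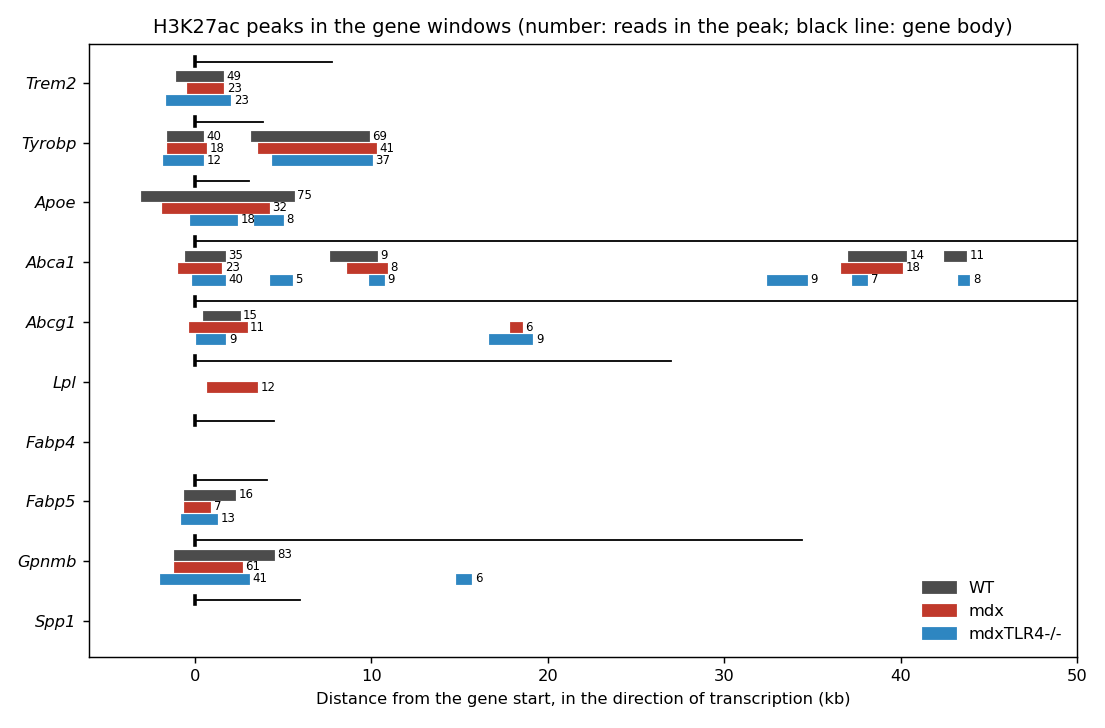
Each coloured bar is an H3K27ac peak, placed by its distance in kb from the gene start in the direction of transcription (x axis), with its reads beside it, for WT (grey), mdx (red) and mdxTLR4-/- (blue), and the black line is the gene body, drawn up to 50 kb. Peaks sat over the start of Trem2, Tyrobp, Apoe, Abca1, Fabp5 and Gpnmb in all 3 genotypes, and 1 WT peak of Abca1 with 8 reads lies beyond the right edge.

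Among the fatty acid genes, Fabp5 (chr3:10012548-10016607, plus strand) had a small peak over its start in every genotype. It held 16 reads in WT (chr3:10012001-10014800), 7 in mdx (chr3:10012001-10013400) and 13 in mdxTLR4-/- (chr3:10011801-10013800). The densities of 5.71 reads per kb (3.27 to 9.28), 5 (2.01 to 10.3) and 6.5 (3.46 to 11.1) overlapped, and lay below the median start peak of the same lists, 8.13, 7.5 and 7.5 reads per kb. A peak outside the window, 4.99 kb past the end of the body in WT, held 33 reads there, 9 in mdx and 14 in mdxTLR4-/-.

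Lpl (chr8:68880491-68907448, plus strand) had 12 H3K27ac reads in mdx, in intron 1 from 710 bp past the start (chr8:68881201-68884000). The density was 4.29 reads per kb (2.21 to 7.49). No peak was called in its window in WT or mdxTLR4-/-, where the nearest lay 43.8 and 4.75 kb downstream of the window. A peak of 12 reads is near the median of its list, 10 reads, so presence in mdx alone rests on few reads. Fabp4 (chr3:10204088-10208576, minus strand), the fatty acid-binding protein of adipocytes and macrophages, had no H3K27ac near its window in any genotype, and the nearest was the peak past Fabp5, 175.9, 176.7 and 175.9 kb away.

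Of 8 other fatty acid-binding protein genes, 0 had H3K27ac in WT and mdx and 1, Fabp7, had it in mdxTLR4-/- (5 reads), against the 39.9%, 34.5% and 36.5% of all genes. H3K27me3 was found at 3, 3 and 4 of the 8, near its share of all genes in WT and mdx (38.4% and 41.3%) and beside 39% in mdxTLR4-/-. Fabp1, of liver and intestine, had it over 37.5%, 23.2% and 21.6% of its window. Fabp6, an intestinal bile acid-binding protein, had H3K27me3 over 76.2%, 0% and 18.6% of its window. Pmp2, of the same list, went the other way, with 0%, 72.7% and 66.8%. Of 11 genes of the lipase family and its regulators, 3, 2 and 1 had H3K27ac, beside the same shares of all genes. In every genotype 8 of the 11 had H3K27me3, beside 38.4%, 41.3% and 39% of all genes. Lipc, the hepatic lipase, had 43, 32 and 14 H3K27ac reads. Lipg, the endothelial lipase and a relative of Lpl, was covered over 100% of its window in all 3. Angptl4, an inhibitor of lipoprotein lipase, had 14 H3K27ac reads in WT and no peak in the other genotypes.

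Gpnmb (chr6:49036546-49070929, plus strand) had a broad H3K27ac peak over exon 1 and intron 1. The peak held 83 reads over 5600 bp in WT (chr6:49035401-49041000), 61 over 3800 bp in mdx (chr6:49035401-49039200) and 41 over 5000 bp in mdxTLR4-/- (chr6:49034601-49039600). The unscaled density was 14.8 reads per kb (11.8 to 18.4) in WT and 16.1 (12.3 to 20.6) in mdx, with overlapping intervals, and 8.2 (5.88 to 11.1) in mdxTLR4-/-, below both. Set against the median ratio over all genes with a peak in both lists, the mdxTLR4-/- window reads stood at 0.849 (0.581 to 1.23) against WT. Against mdx they stood at 0.877 (0.586 to 1.3), and both intervals included 1. In mdx the start peak was the densest of the 10, at percentile 91.2. A peak of 6 reads around exon 9 was called in mdxTLR4-/- alone. In WT, 4 further peaks of 9 to 25 reads lay between 8.95 and 22.9 kb upstream of the body, against 1 peak in mdx (24 reads) and 1 in mdxTLR4-/- (7 reads).

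Spp1 (chr5:104435118-104441050, plus strand) had no peak of either mark in its window. Its nearest H3K27ac peak lay 129.2, 221.4 and 303.1 kb from the window in WT, mdx and mdxTLR4-/-. H3K27me3 came much closer, 4.75, 5.35 and 4.75 kb downstream, in a stretch of 10800 bp with 253 reads in WT (chr5:104446801-104457600). Of the 4 bone matrix phosphoprotein genes that neighbour Spp1, 0 had H3K27ac in any genotype, and 51.9% of all genes had none either. Ibsp, a bone sialoprotein gene, had an H3K27me3 peak of 37 reads over 1.47% of its window in mdx alone. Mepe, a bone matrix protein gene, had H3K27me3 over 27%, 57.1% and 21.8% of its window in the 3 genotypes.

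Between the start peaks of the list, the order of density in WT was Tyrobp, Trem2, Abca1, Gpnmb, Apoe and Fabp5. In that order, neighbouring intervals overlapped down to Gpnmb, did not overlap between Gpnmb (11.8 to 18.4) and Apoe (6.86 to 10.9), and overlapped between Apoe and Fabp5. In mdx the order ran Gpnmb, Trem2, Abca1, Tyrobp, Apoe, Fabp5 and Abcg1, each overlapping the next. In mdxTLR4-/- Abca1 stood first, and its interval (15.9 to 30.3) did not overlap that of Gpnmb (5.88 to 11.1), which was second. Apoe, Fabp5, Trem2 and Tyrobp followed at 5.45 to 6.92 reads per kb.

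To compare genotypes, the ratio of reads in each window was set relative to the median ratio over all protein-coding genes with a peak in both lists, and was called past 1.5-fold. That median was 0.75 for mdx over WT (6564 genes), 0.879 for mdxTLR4-/- over mdx (6219) and 0.667 for mdxTLR4-/- over WT (6868), so unscaled reads fell at most genes. Intervals treat this median as fixed. The 3 comparisons share lists and are not independent.

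In mdx relative to WT, 3 of the 7 genes with a ratio were past 1.5-fold lower and 1 was higher, where 18.3% of all genes were lower and 18.2% higher. Without scaling, 5 were lower and 0 higher, among 39.2% and 7.02% of all genes. Scaled to the reads in peaks, 2 were lower and 1 higher, among 13.5% and 22% of all genes. Trem2 was then within the limit, at a log2 ratio of -0.575. Apoe stood at 0.569 of the median gene (0.364 to 0.871), Fabp5 at 0.583 (0.203 to 1.5) and Trem2 at 0.626 (0.364 to 1.05). Of these 3, only Apoe had an interval below 1. Abcg1 stood at 1.51 (0.71 to 3.25), an interval on both sides of 1 that rests on 17 and 15 reads. Tyrobp (0.722, with an interval that ended just under 1), Abca1 (0.848) and Gpnmb (0.98) were within the limit. Of the Tyrobp reads, however, 69 of 109 in WT and 41 of 59 in mdx lay in the peak shared with Hcst and Nfkbid. With reads in proportion to overlap, the log2 ratio of Tyrobp was -0.76, past the limit, and that of Apoe was -0.584, just within it. In that setting 3 genes were lower, among 18.3% of all genes, with Tyrobp in place of Apoe. With only the peak over its start, a choice made after seeing the data, Tyrobp stood at 0.563 (0.304 to 1.004). Abca1 and Gpnmb stayed within the limit in both settings. The median of the 7 was 0.722, and 6 of the 7 were below the median gene, with intervals below 1 for Apoe and Tyrobp only. The 7 genes come from the same merged lists and are not replicates of a genotype.

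In mdxTLR4-/- relative to mdx, 0 of the 7 were lower and 2 were higher, where 18.5% and 18.9% of all genes were. Abca1, at 1.81 (1.25 to 2.64), was the only gene whose interval excluded 1. It stood at percentile 89.7 among the 6219 genes. Fabp5 stood at 2.11 (0.784 to 6.26), from 13 and 7 reads. The other 5 lay between 0.877 (Gpnmb) and 1.2 (Abcg1), and the median of the 7 was 1.14. Without scaling, 0 were lower and 2 higher among 27.3% and 13.2% of all genes.

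In mdxTLR4-/- relative to WT, 1 of the 7 was lower and 2 were higher, where 19% and 19.1% of all genes were. Apoe stood at 0.52 (0.319 to 0.822), and the intervals of the other genes in the lower range were 0.471 to 0.953 for Tyrobp (0.674), 0.409 to 1.18 for Trem2 (0.704) and 0.581 to 1.23 for Gpnmb (0.849). The exporters were the 2 genes above the limit, Abca1 at 1.52 (1.09 to 2.11) and Abcg1 at 1.8 (0.857 to 3.84). For Abca1 this means that its reads were nearly equal, 78 and 77, while the median gene fell, and without scaling 0 genes of the list were higher and 4 were lower, among 4.5% and 51% of all genes. With only the reads of the peaks over the start, a choice made after seeing the data, Tyrobp was lower as well, at 0.43 (0.205 to 0.836), beside Apoe at 0.344 (0.194 to 0.582). Abca1 was then at 1.64 (1.02 to 2.66).

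**Figure D3:**
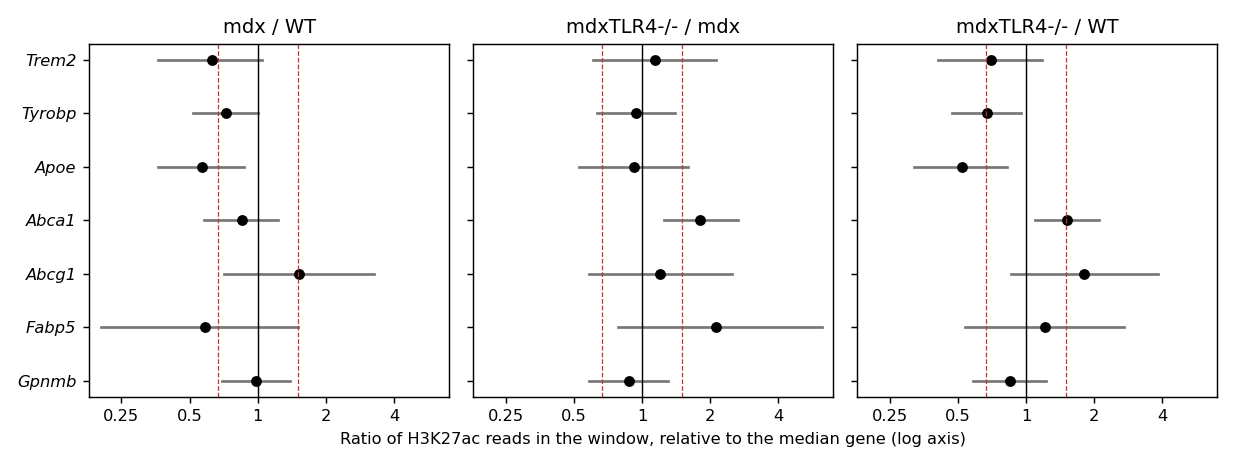
Points give the ratio of H3K27ac reads in the window between 2 genotypes, relative to the median protein-coding gene (x axis, log scale), for the 7 genes with a peak in all 3 genotypes, and lines are exact 95% intervals for counting error. Dashed lines mark 1.5-fold in either direction. The whole interval lay below 1 for Apoe and Tyrobp in both comparisons with WT. It lay above 1 for Abca1 in both comparisons of mdxTLR4-/-. Other genes also had points on the same side in both, with intervals that included 1.

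Although no H3K27me3 peak touched the windows, such peaks lay near several of the genes. Over all protein-coding genes without a peak in the window, the median distance to the nearest was 51.8 kb in WT, 38.4 kb in mdx and 44.7 kb in mdxTLR4-/-. Abcg1 was closest, with a peak 1.81, 2.21 and 3.01 kb past its window in WT, mdx and mdxTLR4-/-, over Tff3, a trefoil factor of mucous epithelium, with 521, 562 and 363 reads. Beside Tyrobp a large block began at the same base in each genotype, 14.6 kb past the window, and held 2801, 3151 and 2561 reads over 39800, 38800 and 35600 bp. It covered Aplp1, Kirrel2 and Nphs1, genes of neurons and kidney podocytes.

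The distance varied with genotype at Abca1, Lpl and Fabp5. At Abca1, the nearest peak lay upstream at 6.51 kb in WT (109 reads), 96.1 kb in mdx and 11.9 kb in mdxTLR4-/- (47 reads). Fabp5 had its nearest peak at 16, 33.5 and 86.8 kb and Lpl at 31.7, 19.5 and 97.5 kb. These peaks held 25 to 110 reads, in lists with medians of 123, 89 and 75 reads and minima of 27, 17 and 16, so most were weaker than the typical peak. The other genes varied less, with Trem2 at 7.25, 12.5 and 10.9 kb, Fabp4 at 12.4, 13.3 and 13.5 kb, Apoe at 33.2, 18 and 33.4 kb and Gpnmb at 29.5, 29.1 and 27.9 kb.

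**Figure D4:**
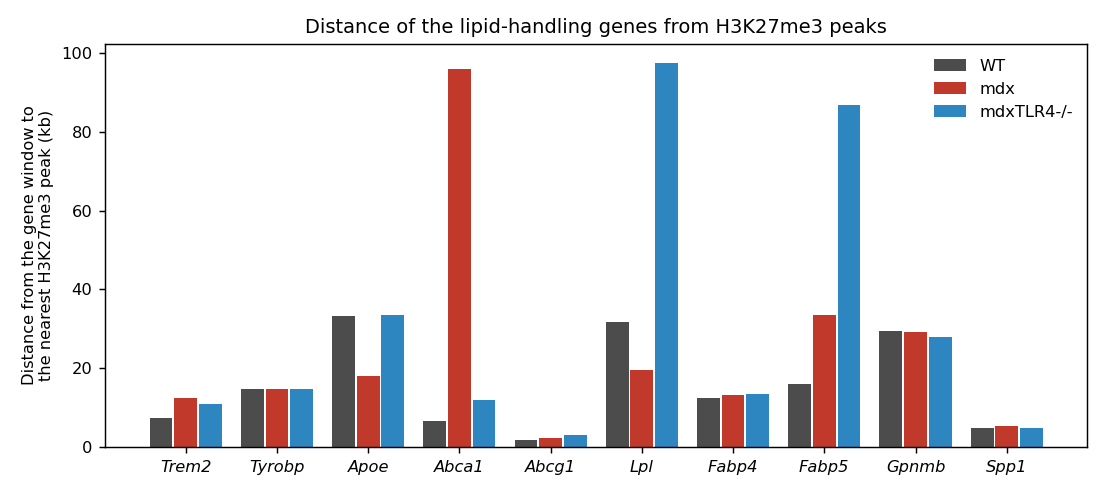
Bars give the distance in kb (y axis) from the edge of each gene's window to the nearest H3K27me3 peak in WT (grey), mdx (red) and mdxTLR4-/- (blue). Abcg1 and Spp1 were nearest in all 3 genotypes, and Abca1 was 96.1 kb away in mdx against 6.51 kb in WT.

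The pathways around these genes were then counted from lists of related genes, 88 in all. H3K27ac touched the window of 49 in WT, 44 in mdx and 50 in mdxTLR4-/-, beside 39.9%, 34.5% and 36.5% of all protein-coding genes. It lay over the start of 31, 24 and 21, beside 24%, 20.6% and 20.9%. H3K27me3 touched 31, 32 and 33, near its shares of 38.4%, 41.3% and 39%. These counts were not tested. In the sterol-sensing list, 9 of 12 genes had H3K27ac in the window in each genotype, beside the same H3K27ac shares of all genes. Nr1h3, the liver X receptor alpha that activates Abca1, had 75, 40 and 30 H3K27ac reads in WT, mdx and mdxTLR4-/-. Rxrb, a partner of the liver X receptors, had 13 reads in WT, no peak in mdx and 11 reads in mdxTLR4-/-, and Srebf2, which activates cholesterol synthesis, had no peak in WT, 7 reads in mdx and 5 in mdxTLR4-/-. Ppara, a receptor of fatty acid oxidation, had none and was covered by H3K27me3 over 87.3%, 95.7% and 90.8% of its window.

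Of 10 uptake genes, 7, 6 and 7 had H3K27ac. For this and the other lists of this paragraph, the shares of all genes with H3K27ac were 39.9%, 34.5% and 36.5%. The endocytic lipoprotein receptor Lrp1 had 114, 85 and 63 reads. Cd36, a scavenger receptor for fatty acids and oxidized lipoprotein, had 30 reads in WT, no peak in mdx and 10 reads in mdxTLR4-/-. Vldlr, the receptor of very-low-density lipoprotein, had H3K27me3 over 21%, 17.4% and 19.2% of its window. Of 9 genes of lysosomal cholesterol and ester handling, 7, 8 and 8 were marked, and Lipa, the lysosomal acid lipase, had 151, 90 and 72 reads. Abca7, a relative of Abca1, had no peak in WT, 7 reads in mdx and 5 in mdxTLR4-/-. Pltp, the phospholipid transfer protein, had 11, 10 and 7 H3K27ac reads and H3K27me3 over 15.7%, 10.7% and 0% of its window. Of 10 lipid droplet genes, 7, 6 and 8 were marked. Plin2, which coats lipid droplets, had 89, 34 and 55 reads, whereas Mgll, a lipase for monoglycerides, had 0, 5 and 7 reads and was covered by H3K27me3 over 78.8%, 76.6% and 66% of its window. Pnpla2, the main triglyceride lipase of lipid droplets, had 16, 0 and 11 reads, and Acsl1, which activates fatty acids, had 16, 0 and 6.

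Trem2, Tyrobp, Apoe, Lpl, Gpnmb and Spp1 are also known from disease-associated microglia, brain macrophages around plaques and lipid debris. Of 14 other genes of that state found in the annotation, 10, 8 and 10 had H3K27ac, beside 39.9%, 34.5% and 36.5% of all genes. Ctsb, a lysosomal protease, had 268, 215 and 174 reads. Ank, a pyrophosphate transporter, had 43 reads in WT and no peak in mdx or mdxTLR4-/-, and the chemokine gene Ccl6 had 16, 0 and 15. Csf1, the macrophage growth factor, was covered by H3K27me3 over 84.3%, 51.2% and 68.7% of its window.

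Finally, for each gene the protein-coding gene with the most similar values was found, by Euclidean distance over 6 values. These were the log2 of 1 plus reads in peaks per kb of window for each mark and genotype. Here the reads of each peak were taken in proportion to its overlap with the window. Trem2 was nearest to Hspa5 (distance 0.102), Tyrobp to Brd2 (0.312), Apoe to Irf2bpl (0.139) and Gpnmb to Ing4 (0.0459). Abca1 was nearest to Wdr13 (0.0242), Abcg1 to Nup205 (0.0326), Fabp5 to Cenpl (0.0306) and Lpl to Hinfp (0.00013). Spp1 and Fabp4, at 0 in all 6, were tied with 5216 other genes.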

How the data were processed

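ChIP-seq of BMDM gave 18 libraries, 11 ChIP and 7 input. According to the study's methods and the submitters' processing notes, reads were trimmed with cutadapt 1.15, mapped to mm10 with Bowtie2 2.3.4, merged over replicates and called with SICER 2.0 (200 bp windows, 600 bp gaps, FDR 0.01). The notes also name CASAVA 1.8. The deposited value of each peak is the authors' count of ChIP reads, left without depth, length or input correction. Peak calling by islands favours broad marks, so edges of narrow H3K27ac peaks move in steps of 200 bp. Starts were converted to 1-based positions.

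Genes came from GENCODE vM21 without the mitochondrial chromosome. Peaks touching a window by at least 1 bp were counted whole, except in the search for similar genes and in the alternative with reads in proportion to overlap. Ratios between genotypes were set relative to the median gene and given exact Clopper-Pearson 95% intervals for counting error, with Python 3.11.15, numpy 2.4.6 and scipy 1.17.1, after tests on simulated data. No test between genotypes was possible. Alternatives were unscaled reads, scaling to reads in peaks, reads in proportion to overlap, a 2-fold limit, peaks of at least 10 reads or above a density minimum, equal numbers of peaks per list, 10% of the window under peaks, 2 narrower windows, the start of any transcript, and, added after the data were seen, peaks over the start only. The named genes are all 10, and in each list of related genes those with the most H3K27ac reads or H3K27me3 coverage in WT and up to 3 with a peak in only 1 of WT and mdx. Fabp7, Pmp2 and the markers of other cells were named after their values were seen. The 10 genes, the lists and the motifs were chosen with earlier results of these data known. Input libraries were not used.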

Additional observations from a re-analysis of the deposited data

How the results depend on the processing

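Of 69 recomputed counts, 52 stayed within 1.5 times the reported count, and of 63 values of single genes 59 stayed within their counting interval. No gene past the 1.5-fold limit changed direction, but of those within it, Fabp5 in mdxTLR4-/- against WT went from a log2 ratio of 0.29 to -0.30 and Trem2 in mdxTLR4-/- against mdx from 0.19 to 0 with unscaled reads, and Gpnmb in mdx against WT from -0.03 to 0.07 with scaling to the reads in peaks. Where peaks had to cover at least 10% of a window, 5 genes had H3K27ac in WT, 4 in mdx and 5 in mdxTLR4-/-. The main counts were 7, 8 and 7, so mdx no longer had the most. The share of all genes is not given for this setting. With unscaled reads, 5 genes were lower and 0 higher in mdx than in WT, and 4 lower and 0 higher in mdxTLR4-/- than in WT. The shares of all genes for unscaled reads are given above. With reads in proportion to overlap, 0 were higher in mdx than in WT, where 17.6% of all genes were. In that setting 1 was lower in mdxTLR4-/- than in mdx and 2 lower than in WT, where 18.7% and 18.9% of all genes were. With a 2-fold limit, 0 were lower and 0 higher in mdx than in WT, where 6.7% and 7.02% of all genes were. At that limit 1 was higher in mdxTLR4-/- than in mdx, where 7.38% of all genes were. Against WT, 0 were lower and 0 higher in mdxTLR4-/-, where 8.1% and 6.68% of all genes were. For the peaks over the start only, no share of all genes is given, so whether the counts that follow are unusual cannot be told. Abcg1, with such a peak in mdx alone, had no ratio there and could not count as higher. In that setting 4 were lower and 0 higher in mdx than in WT. In mdxTLR4-/-, 1 was lower than in mdx, and 2 were lower and 1 higher than in WT. The cause was not tested. The H3K27me3 ratios gave no value, since no gene had a peak. Replicates could not be left out, because they were merged before peaks were called. No paired analysis was possible because each mark and genotype has 1 merged list. Peaks of 5 to 20 reads are at the limit of detection, and whether a genotype lacks one cannot be told from its depth.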
